A study of Mus musculus with 12 samples.

Results

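Synthetic let-7g was compared directly with an siRNA against Nr6a1 in Dicer-deficient mouse cells. The comparison holds 6 of the 12 mRNA sequencing libraries of the series, 3 of KO_let-7g and 3 of KO_siNr6a1, chosen by their titles. Of 21881 genes in the deposited table, 11801 had at least 1 FPKM (fragments scaled to transcript length and to the size of the library) in at least 3 of the 12 libraries and were tested.

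KO_let-7g cells were Dicer -/- C57BL/6 mouse mesenchymal stem cells (MSCs), immortalized and monoclonal, that received a synthetic let-7g duplex. KO_siNr6a1 cells were Dicer -/- MSCs that received an siRNA against Nr6a1. KO_siCtrl (Dicer -/-) and WT_siCtrl (Dicer f/f, that is floxed alleles) received a nontargeting siRNA and are given for orientation. All 4 groups were transfected at 20 nM with the HiPerFect reagent, grown in Alpha-MEM with serum, and harvested 48 h later, and polyadenylated RNA was sequenced. Both treatments therefore shared the loss of Dicer, the reagent, the dose and the time. Neither the number of clonal lines nor whether a group's 3 libraries were separate cultures is given, so genotype and line cannot be told apart. The p-values therefore cover only library-to-library spread, which may be technical.

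MicroRNAs of the let-7 family bind mRNAs mainly through the seed, the bases near their 5′ end, and lower mRNA level and translation. They accumulate as cells differentiate, and known targets include Hmga2, the Igf2bp genes and Lin28. Dicer makes mature microRNAs from their hairpins, and a synthetic duplex does not need it. Nr6a1, also called germ cell nuclear factor, is an orphan nuclear receptor that represses transcription in the early embryo and in germ cells.

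The duplex carries the let-7g sequence, and RefSeq (GRCm38.p6) gives the mature strand at chr9:106178846-106178867 and the opposite arm at chr9:106178902-106178923, both on the plus strand. Capitals mark the seed, bases 2 to 8.
mmu-let-7g-5p: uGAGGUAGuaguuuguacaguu
mmu-let-7g-3p: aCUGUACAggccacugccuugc
The 8mer site is CTACCTCA, which pairs with bases 2 to 8 and has an A opposite base 1. Below it stands in capitals in 30 bases of the longest annotated 3′ UTR (GENCODE M21, GRCm38) of Nr6a1, the gene both treatments lowered, and of 5 genes that were called lower in KO_let-7g.
Nr6a1 site 1: taatgttgacaaagacaaCTACCTCAatgg
Nr6a1 site 2: aaggaaaggggcattaaaCTACCTCAtgtt
Nr6a1 site 3: ggcaagtgcatcatgaacCTACCTCAggct
Hmga2: ggcgccgacattcaatttCTACCTCAgcat
Igf2bp2: aaaacacacaaataaaagCTACCTCAggtg
Prtg: aagccctctgctgaatagCTACCTCAgttt
Dkk3: atccctgtgtttcagctcCTACCTCActgt
Arid3a: tgcaaggcaagtttctttCTACCTCAggtc
The Nr6a1 sites lie at chr2:38727445-38727474, chr2:38726588-38726617 and chr2:38723681-38723710 on the minus strand. The others lie at chr10:120364220-120364249 (Hmga2, minus), chr16:22059469-22059498 (Igf2bp2, minus), chr9:72912555-72912584 (Prtg, plus), chr7:112117730-112117759 (Dkk3, minus) and chr10:79953892-79953921 (Arid3a, plus).

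The 6 libraries were alike in the number of genes detected. Between 15733 and 16602 genes had an FPKM above 0 and 11032 to 11346 reached 1 FPKM. Total reads are not known, and depth relative to the shallowest library of the series, read from the steps of the low values, was 1.34 to 1.82 in KO_let-7g and 1.13 to 1.57 in KO_siNr6a1. Pearson correlations of log2(FPKM + 1) across the tested genes, which are not independent replicates, were 0.972 to 0.975 within KO_let-7g, 0.967 to 0.979 within KO_siNr6a1 and 0.937 to 0.959 between the groups. Of 12 MSC markers, 8 exceeded 10 FPKM in all 6 libraries, among them Vim (1301 to 1605 FPKM in KO_let-7g and 1216 to 1309 in KO_siNr6a1) and Cd44 (87.4 to 111 FPKM in KO_let-7g and 77.0 to 84.1 in KO_siNr6a1). Thy1, a marker often used to define MSCs, was listed at or near 0 throughout. Under 1 FPKM in all 6 libraries were 13 of 16 blood, 8 of 10 endothelial, 10 of 10 epithelial and 9 of 11 neural markers. In bulk RNA, fewer cells of a type and less RNA per cell cannot be told apart.

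Nr6a1 itself did not pass the test between the treatments. It had 3.87, 5.38 and 3.39 FPKM in KO_let-7g and 3.43, 4.30 and 3.31 in KO_siNr6a1, against 12.6, 12.3 and 10.2 in KO_siCtrl and 1.16, 0.945 and 1.25 in WT_siCtrl. The values of the 2 treatments overlapped, and both stood below every KO_siCtrl library and above every WT_siCtrl library. The log2 difference (KO_let-7g minus KO_siNr6a1, on the log2(FPKM + 1) scale as all differences here) was 0.14 with a standard error of 0.15 and a 95% interval of -0.18 to 0.47 (limma, adjusted p = 0.466). The two-sided exact permutation test gave p = 0.6, where 3 against 3 libraries cannot go below 0.1. Under quantile scaling or without KO_let-7g replicate 1 the difference was -0.03 and -0.01. It was larger, at 0.25, in limma with library weights (adjusted p = 0.0659), and 0.26 without KO_let-7g replicate 2. Dicer1, the deleted gene, had 2.88, 2.86 and 2.37 FPKM in KO_let-7g and 3.58, 2.82 and 3.04 in KO_siNr6a1, also with overlap (-0.16, SE 0.13, adjusted p = 0.355, exact p = 0.3). FPKM is one value per gene and does not resolve the floxed part.

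With Nr6a1 at levels that the test did not separate, many other mRNAs differed. Of 11801 genes, 4826 were called at an adjusted p under 0.05 (limma on log2(FPKM + 1), Benjamini-Hochberg adjustment over all tested genes), 40.9% of those tested. There were 3262 higher in KO_let-7g (27.6%) and 1564 lower (13.3%). Of the called genes 2093 differed by less than 0.5 and 499 by at least 1, of which 257 were higher and 242 lower in KO_let-7g. For 4698 genes (39.8%) the 95% interval of the difference lay within 0.5 of 0. The 3 libraries of one treatment stood all above the 3 of the other for 6543 genes (55.4%), for 4427 with KO_let-7g above and for 2116 with it below. Of the tested genes 165 passed the filter only through KO_let-7g, of which 111 were called higher, and 60 only through KO_siNr6a1, of which 12 were called lower. Such genes could hardly differ the other way, and their calls carry no weight as a test. They remain in the counts and shares of called genes given here.

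The surplus of higher genes depended on scaling. The median difference over all genes was 0.12 with the deposited FPKM and 0.00 after median of ratios scaling, a shift of the whole distribution that bears on each small difference. Of the called genes 67.6% were higher in KO_let-7g as deposited, 61.7% after upper quartile scaling, 51.9% after quantile scaling (2234 higher and 2070 lower) and 48.5% after median of ratios scaling (2129 higher and 2260 lower). With the replicate number added to the model as a block, 4356 were higher and 2105 lower, each time of 11801 tested. List counts given below for a setting stand against the counts over all genes in that setting, not against those as deposited.

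**Figure D1:**
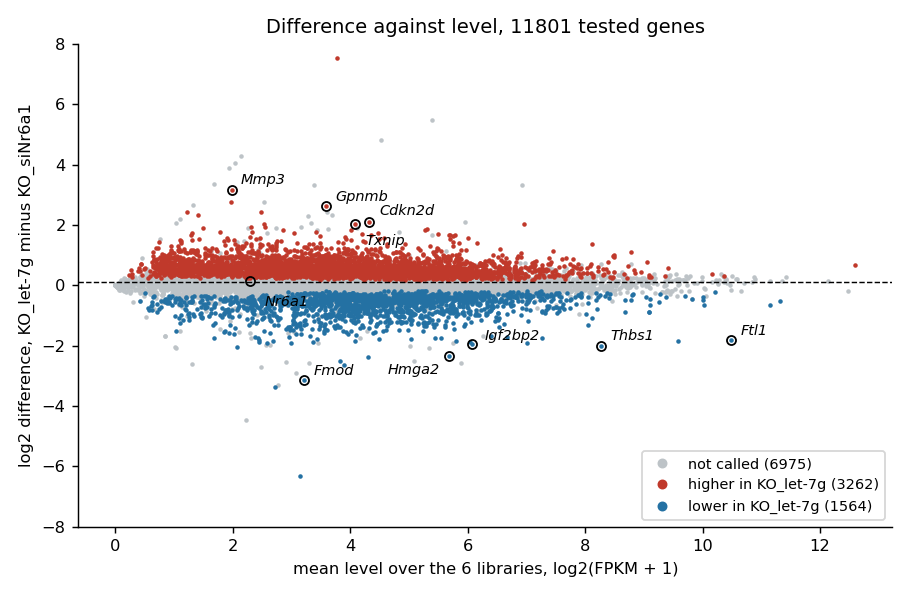
Log2 difference, KO_let-7g minus KO_siNr6a1, against the mean level of the 6 libraries for the 11801 tested genes; points are genes, red called higher and blue called lower in KO_let-7g, and the dashed line is the median of 0.12. Nr6a1 lies by the line, Mmp3 and Gpnmb lie high, and Hmga2, Igf2bp2 and Fmod lie low.

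Among the largest falls in KO_let-7g, Fmod, the collagen-binding proteoglycan fibromodulin, had 2.54, 3.25 and 1.03 FPKM in KO_let-7g and 25.6, 34.9 and 21.4 in KO_siNr6a1, against 1.62, 2.21 and 0.723 in KO_siCtrl. The KO_let-7g libraries overlapped those of KO_siCtrl, and the KO_siNr6a1 libraries lay above both (-3.15, SE 0.31, adjusted p = 4.06e-05). Penk, the precursor of the enkephalin peptides, was alike in this, with 5.97, 9.02 and 2.06 FPKM in KO_let-7g, 30.4, 56.9 and 27.0 in KO_siNr6a1 and 6.63, 8.19 and 3.40 in KO_siCtrl (-2.63, adjusted p = 0.000898). For both genes KO_siNr6a1 was called higher than KO_siCtrl (3.51 for Fmod and 2.45 for Penk, adjusted p = 4.26e-05 and 0.0021), and KO_let-7g was not called (0.36 and -0.18, adjusted p = 0.377 and 0.779).

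For Hmga2, a chromatin protein of embryonic growth, KO_let-7g was the group apart. It had 18.0, 25.5 and 22.4 FPKM in KO_let-7g and 107, 108 and 130.3 in KO_siNr6a1, against 101, 113 and 128 in KO_siCtrl and 9.11, 7.44 and 6.20 in WT_siCtrl. All KO_let-7g libraries stood below all others of the Dicer -/- cells and above WT_siCtrl (-2.35, SE 0.15, adjusted p = 5.44e-06). Igf2bp2, an RNA-binding protein of fetal tissues, had 31.9, 39.0 and 30.2 FPKM in KO_let-7g, 139, 119 and 136 in KO_siNr6a1 and 139, 132 and 134 in KO_siCtrl (-1.94, SE 0.11, adjusted p = 2.78e-06). Neither gene was called in KO_siNr6a1 against KO_siCtrl (0.02 and -0.04, adjusted p = 0.955 and 0.804).

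Thbs1, the matrix protein thrombospondin 1, had 159, 178 and 126 FPKM in KO_let-7g, 621, 552 and 686 in KO_siNr6a1 and 432, 433 and 412 in KO_siCtrl (-2.0, adjusted p = 1.76e-05). Prtg, the cell surface protein protogenin of the embryonic neural tube, had 2.99, 3.85 and 2.64 FPKM in KO_let-7g and 13.5, 13.7 and 16.0 in KO_siNr6a1 (-1.90, adjusted p = 6.32e-06), and Dkk3, a secreted member of the Dickkopf family, 36.0, 41.7 and 24.0 FPKM in KO_let-7g and 117, 136 and 123 in KO_siNr6a1 (-1.89, adjusted p = 1.76e-05). In these 3 genes the KO_siCtrl libraries (5.09, 5.52 and 4.63 FPKM for Prtg, 66.1, 62.5 and 55.3 for Dkk3) stood between the treatments, below KO_siNr6a1 and above KO_let-7g. Arid3a, an AT-rich DNA-binding protein, fell to 1.41, 2.20 and 1.98 FPKM in KO_let-7g, against 9.87, 8.69 and 9.89 in KO_siNr6a1 (-1.88, adjusted p = 4.37e-06). The other large falls were of the plasma haemoglobin-binding protein haptoglobin (Hp, -2.38), the angiopoietin Angpt4 (-2.04), the phosphatidylcholine transfer protein Pctp (-1.91), the ATP synthase component Usmg5 (-1.90) and D0H4S114 (-2.51), with adjusted p from 8.25e-06 (Pctp) to 0.00136 (Hp).

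Among the largest rises, Mmp3, the matrix protease stromelysin 1, had 12.5, 9.68 and 10.4 FPKM in KO_let-7g and 0.403, 0.459 and 0.111 in KO_siNr6a1, with KO_siCtrl at 0.279, 0.467 and 0.110 (difference 3.17). In all libraries of the other 3 groups Mmp3 stayed under 0.5 FPKM, so it passed the filter only through KO_let-7g and its difference is a description with no test. Gpnmb, a glycoprotein of lysosomes and melanosomes, had 26, 24.5 and 37.7 FPKM in KO_let-7g and 3.72, 3.70 and 4.21 in KO_siNr6a1 (2.62, adjusted p = 1.96e-05). Car6, a secreted carbonic anhydrase (2.76), and Cox6a2, a muscle subunit of cytochrome c oxidase (2.34), likewise passed the filter only through KO_let-7g. Car6 had 7.82, 8.29 and 11.8 FPKM in KO_let-7g and 1.02, 0.126 and 0.488 in KO_siNr6a1, and Cox6a2 had 3.39, 6.08 and 5.80 FPKM in KO_let-7g and 0.255, 0.192 and 0.0924 in KO_siNr6a1. Neither is given a test. Txnip, a thioredoxin-binding arrestin that limits glucose uptake, had 37.9, 38.7 and 25.1 FPKM in KO_let-7g, 7.66, 7.95 and 6.47 in KO_siNr6a1 and 11.4, 9.83 and 10.1 in KO_siCtrl (2.04, adjusted p = 1.98e-05).

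For Cdkn2d, the INK4-family inhibitor of the cyclin D kinases, KO_siNr6a1 was the group apart. It had 39.6, 42.4 and 38.4 FPKM in KO_let-7g and 6.76, 11 and 8.79 in KO_siNr6a1, against 31.1, 31.9 and 32.0 in KO_siCtrl (2.08, SE 0.16, adjusted p = 1.02e-05). Against KO_siCtrl it was called in KO_siNr6a1 (-1.75, adjusted p = 4.26e-05) and not in KO_let-7g (0.33, adjusted p = 0.109). Further rises were of the sulfide-oxidizing enzyme Sqrdl (1.94), the calcitonin-receptor partner Ramp3 (1.94), the G-protein subunit Gngt2 (1.91), the transcripts 2410006H16Rik (2.03) and Gm7367 (1.87), and the snoRNA host genes Snhg10 (2.05) and Snhg7 (1.84), with adjusted p from 1.30e-05 (Snhg7) to 0.0063 (Ramp3). Among the 15 largest changes each way were also 4 entries of very short RNAs, which polyadenylated libraries measure poorly. Snord58b (131, 178 and 267 FPKM in KO_let-7g) and Mir1937b-2 (2.85, 7.73 and 3.64) were listed at 0 in all 3 KO_siNr6a1 libraries, Mir707 was listed at 0 in KO_let-7g and at 89.0, 85.6 and 62.1 in KO_siNr6a1, and Snord15b had 0, 7.54 and 0 in KO_let-7g and 19.6, 19.3 and 21.1 in KO_siNr6a1. No fold change is given for the 3 entries with a group at 0. Mir1937b-2 passed the filter only through KO_let-7g, and Mir707 only through KO_siNr6a1. Values in the control groups were uneven too. In WT_siCtrl Mir707 had 91.5, 0 and 165 FPKM and Mir1937b-2 had 0, 8.08 and 0. Snord58b had 0, 512 and 0 FPKM in KO_siCtrl. The Snord58b call was lost whichever 1 of the 6 libraries was left out (adjusted p of 0.0532 to 0.0682), and the Snord15b call without any library but KO_let-7g replicate 1 (0.0901 to 0.138).

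**Figure D2:**
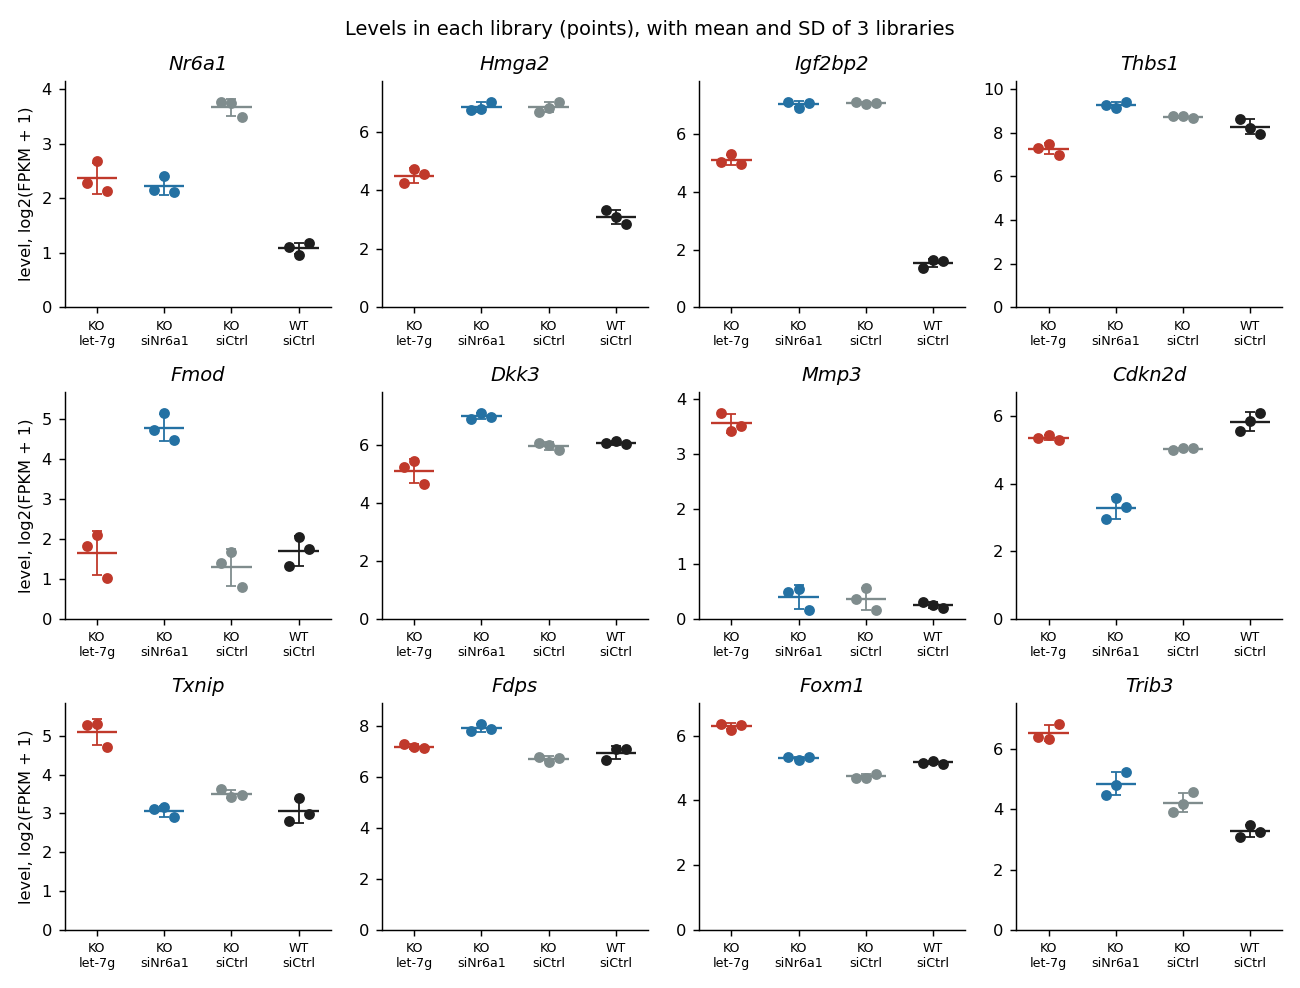
Level in log2(FPKM + 1) of 12 genes in each library, with the mean and SD of the 3 libraries of each group, KO_let-7g at the left, then KO_siNr6a1, KO_siCtrl and WT_siCtrl. Nr6a1 overlaps between the treatments, Hmga2, Igf2bp2 and Thbs1 are lowest among the Dicer -/- groups in KO_let-7g, Fmod is highest and Cdkn2d lowest in KO_siNr6a1 among those groups, and Mmp3 is highest in KO_let-7g.

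Each treatment's own comparison with KO_siCtrl gives the side of KO_siCtrl on which its calls lie. These comparisons share the 3 KO_siCtrl libraries, so their calls are not independent. A gene not called may still differ from KO_siCtrl. A call in a single treatment therefore does not show that only that treatment changed the gene. At an adjusted p under 0.05, KO_let-7g had 27.5% of genes higher and 18.2% lower than KO_siCtrl, and KO_siNr6a1 had 13.2% higher and 16.3% lower. Of the 3262 genes higher in KO_let-7g than in KO_siNr6a1, 1516 (46.5%) were called higher in KO_let-7g against KO_siCtrl and not called in KO_siNr6a1. A further 648 (19.9%) were called lower in KO_siNr6a1 and not called in KO_let-7g. In 161 the treatments were called in opposite directions, in 309 both were called higher, in 63 both lower, and 565 were called in neither. Of the 1564 genes lower in KO_let-7g than in KO_siNr6a1, 790 (50.5%) were called lower in KO_let-7g and not called in KO_siNr6a1, and 253 (16.2%) were called higher in KO_siNr6a1 and not called in KO_let-7g. In 91 of them the treatments were called in opposite directions, in 183 both were called lower, in 72 both higher, and 175 were called in neither.

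Genes called in opposite directions lay on both sides of KO_siCtrl. The stem cell antigen Ly6a (Sca-1) had 86.9, 94.0 and 102 FPKM in KO_let-7g and 27.7, 34.2 and 26.9 in KO_siNr6a1, against 50.4, 43.1 and 53 in KO_siCtrl (1.64, adjusted p = 1.11e-05). The taurine transporter Slc6a6 had 54.4, 63.1 and 49.6 FPKM in KO_let-7g and 173, 179.6 and 194 in KO_siNr6a1, against 93.2, 96.2 and 98.6 in KO_siCtrl (-1.70, adjusted p = 2.78e-06). In both genes no library of any of the 3 groups overlapped another group. By the same rule the immune receptor gene Tigit (0.71 in KO_let-7g and -1.02 in KO_siNr6a1, each against KO_siCtrl), AA465934 (0.73 and -0.82), Gm7367 (0.74 and -1.13) and Snhg10 (0.93 and -1.11) were higher in the one and lower in the other. The E2F transcription factor E2f5 (-0.83 and 0.72), Pctp (-0.78 and 1.12), Dkk3 (-0.87 and 1.02) and Parm1 (-0.82 and 0.79) were lower in KO_let-7g and higher in KO_siNr6a1.

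Sites for let-7 were read in the 3′ UTRs of all genes. A 3′ UTR was found for 11189 tested genes, and each was classed by its best let-7g-5p site: the 8mer above, the 7mer-m8 CTACCTC, the 7mer-A1 TACCTCA, the 6mer TACCTC or none. The 416 genes with an 8mer had a median difference of -0.19, with 173 (41.6%) called lower and 49 (11.8%) called higher in KO_let-7g. The median was -0.11 in the 747 genes with a 7mer-m8 (33.7% lower), -0.09 in the 720 with a 7mer-A1 (29.4% lower), 0.06 in the 1074 with a 6mer (16.4% lower) and 0.17 in the 8232 with no site (8.86% lower, 31.7% higher). The medians thus went up from the 8mer through the shorter sites to no site. With each KO_let-7g library set alone against the KO_siNr6a1 mean, the median was -0.26 to -0.20 for the 8mer genes and 0.16 to 0.19 for the genes with no site.

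The 18 genes with 2 or more 8mers had a median of -0.44 and 12 were lower, and the 398 with 1 had a median of -0.18. Site classes differ in UTR length, with a median of 2636 bases for the 8mer genes and 893 bases for genes with no site. Within each band of UTR length the 8mer genes had the lower median. Below 500 bases it was -0.53 for 8mer genes (n = 19) and 0.19 for genes with no site (n = 2551). From 500 to 1000 bases it was -0.56 for 8mer genes (n = 35) and 0.18 for genes with no site (n = 1922). The medians of 8mer genes were -0.20 (n = 108) from 1000 to 2000, -0.17 (n = 142) from 2000 to 4000 and -0.10 (n = 112) from 4000 bases on, where those of genes with no site were 0.18 (n = 2103), 0.15 (n = 1377) and 0.13 (n = 279). Against KO_siCtrl the 8mer genes had a median of -0.25 in KO_let-7g and -0.04 in KO_siNr6a1, where all tested genes had 0.08 and -0.06. Genes with an 8mer of the opposite arm, let-7g-3p, had a median of 0.05 (n = 670), and genes with none of its sites 0.14 (n = 7900).

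**Figure D3:**
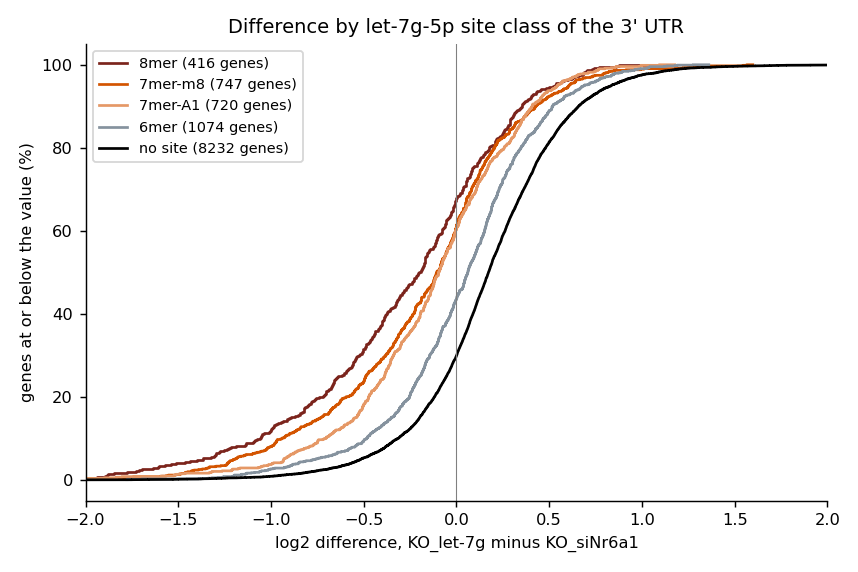
Share of genes (%) at or below each log2 difference, KO_let-7g minus KO_siNr6a1, by the best let-7g-5p site of the 3′ UTR, with the number of genes in each class. The curves run from the 8mer genes at the left (median -0.19) to the genes with no site at the right (0.17).

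Among all 6-base words of the 3′ UTRs, those of the let-7 site stood lowest. Each of 4049 words present in at least 200 genes was scored by the median difference of genes with the word minus that of genes without it, on the mRNA strand. The lowest was TACCTC, held by 26.4% of the UTRs (-0.22), then ACCTCA (35.5%, -0.14) and CTACCT (29.8%, -0.13), all 3 within the 8mer and overlapping one another. The next word, ATCGAC, had -0.12 and was held by 3.11%. The highest word, CCGGCG, had 0.04. Most words scored below 0, and GCGCCG, at rank 2501 from the lowest, had -0.036. The scores take no account of UTR length. Words of the let-7g-3p site were TGTACA (-0.07, rank 44 from the lowest), GTACAG (-0.05, rank 632) and TACAGA (-0.03, rank 3171). Against KO_siCtrl, the highest word in both treatments was AGCCTT, which is not of the let-7 site (43.0% of UTRs). Its score was 0.11 in KO_let-7g and 0.14 in KO_siNr6a1, where the direct comparison gave -0.05. Both scores share the KO_siCtrl libraries, and their cause was not tested. In KO_let-7g against KO_siCtrl, TACCTC was again the lowest (-0.19). A word is a description of these UTRs, and a gene that holds it need not be bound.

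**Figure D4:**
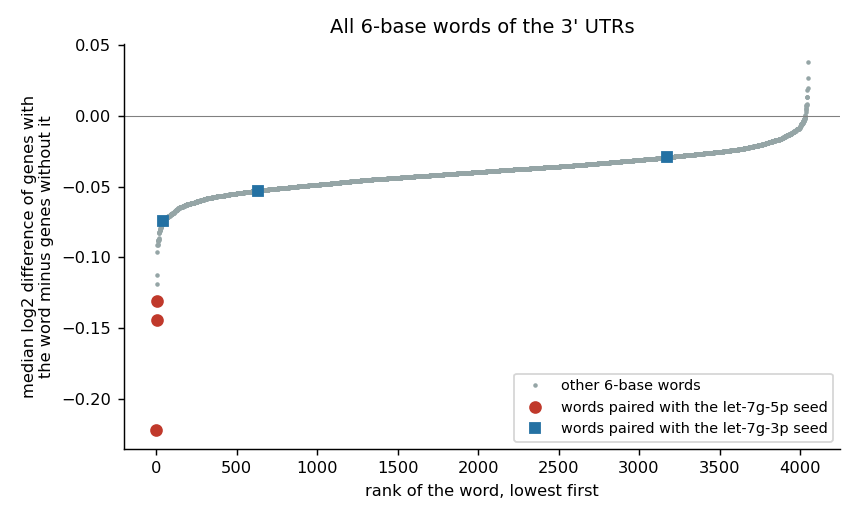
Median log2 difference (KO_let-7g minus KO_siNr6a1) of genes with a 6-base word minus genes without it, for 4049 words in rank order. The 3 words of the let-7g-5p site (red) are the lowest of all, from -0.22 to -0.13, and those of let-7g-3p (blue) lie within the other words.

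Sites were more frequent among the lower than among the higher genes. An 8mer or 7mer stood in 637 of the 1542 lower genes with a UTR (41.3%) and in 265 of the 3100 higher genes (8.55%), against 1883 of all 11189 (16.8%). Of the 100 largest falls 62 of 97 with a UTR held one (63.9%), and of the 100 largest rises 4 of 75 (5.33%). Among the lower genes called lower in KO_let-7g against KO_siCtrl and not called in KO_siNr6a1, 347 of 780 (44.5%) held one. Among those called higher in KO_siNr6a1 and not called in KO_let-7g, 84 of 249 did (33.7%). Among genes called lower in KO_let-7g and higher in KO_siNr6a1 it was 50 of 91 (54.9%).

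Beyond Hmga2, Igf2bp2, Prtg, Dkk3 and Arid3a, the 8mer genes lowest in KO_let-7g were Gprc5c, Hif1an and Tmem2. Hif1an, the asparagine hydroxylase that holds back HIF-1, had 17.8, 18.4 and 14.4 FPKM in KO_let-7g, 66.2, 55.9 and 57.7 in KO_siNr6a1, 50.6, 45.6 and 45.4 in KO_siCtrl and 16.5, 14.3 and 15.3 in WT_siCtrl (-1.77, adjusted p = 3.68e-06). Its KO_let-7g values overlapped those of WT_siCtrl. Gprc5c, an orphan G-protein-coupled receptor, had 2.09, 3.30 and 1.93 FPKM in KO_let-7g and 7.57, 16.4 and 11.2 in KO_siNr6a1 (-1.85, adjusted p = 0.000207), and Tmem2, a cell surface hyaluronidase, 28.1, 30.7 and 17.5 FPKM in KO_let-7g and 89.0, 91.8 and 73.3 in KO_siNr6a1 (-1.73, adjusted p = 8.04e-05).

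The gene lists here and below were chosen with earlier results of these data known, so their counts are a description. Of 42 tested mRNAs on a list of known let-7 targets, 26 were lower and 1 was higher in KO_let-7g, with a median of -0.54. Over all genes 13.3% were called lower and 27.6% higher, and the median was 0.12. In the UTRs used, 25 members held an 8mer, of which 18 were lower, and of 8 with a 7mer-m8 as best site 7 were lower. Hic2, a transcriptional repressor, had 1.76, 2.14 and 1.69 FPKM in KO_let-7g and 8.62, 7.95 and 8.57 in KO_siNr6a1 (-1.71, adjusted p = 2.78e-06). E2f6, a repressor of the E2F family, had 7.67, 7.84 and 8.01 FPKM in KO_let-7g and 21.4, 20.4 and 23.7 in KO_siNr6a1, on either side of KO_siCtrl at 11.4, 11.3 and 11.2 (-1.37, adjusted p = 2.78e-06). Fas, the death receptor, was called lower in the direct comparison (-1.54, adjusted p = 0.00123) with 8.54, 10.7 and 5.38 FPKM in KO_let-7g, 26.2, 32.0 and 18.5 in KO_siNr6a1 and 6.14, 8.44 and 4.49 in KO_siCtrl. Against KO_siCtrl it was called higher in KO_siNr6a1 (1.86, adjusted p = 0.000632). The member that was higher, named after its value was seen, was the insulin receptor substrate Irs2 (0.58, adjusted p = 0.00586). Also named after their values were seen were the relatives of Igf2bp2. Igf2bp1 had 8.15, 7.97 and 9.67 FPKM in KO_let-7g and 25.7, 24.7 and 28.8 in KO_siNr6a1 (-1.51, adjusted p = 8.59e-06), and Igf2bp3 had 18.2, 21 and 15.5 FPKM in KO_let-7g and 44.1, 41.0 and 42.8 in KO_siNr6a1 (-1.19, adjusted p = 4.73e-05), both under 1 FPKM in WT_siCtrl.

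Of 20 genes of microRNA processing, 3 were higher and 4 lower (3 and 6 after median of ratios scaling, 5 and 8 with the replicate block). For the lists of this paragraph the shares over all tested genes as deposited are 27.6% higher and 13.3% lower. The Dicer partner Tarbp2 had 21.2, 24.5 and 25 FPKM in KO_let-7g and 59.6, 62.1 and 61.8 in KO_siNr6a1 (-1.34, adjusted p = 3.90e-05), and the Argonaute-associated helicase Mov10 26.1, 24.1 and 22.2 FPKM in KO_let-7g and 56.0, 59.5 and 58.8 in KO_siNr6a1 (-1.24, adjusted p = 4.73e-05). Dgcr8, the partner of Drosha, and the RNA-editing enzyme Adar were higher (0.48 and 0.61, adjusted p = 0.000977 and 0.000485). Of 11 imprinted and fetal growth genes, 4 were lower and 1 higher: Peg10, a retrotransposon-derived placental gene (26.4, 38.4 and 22.9 FPKM in KO_let-7g and 101, 101 and 111 in KO_siNr6a1, -1.83), Mest (-1.52), the growth-receptor adaptor Grb10 (-0.93) and the G-protein subunit Gnas (-0.46) were lower, with adjusted p from 2.94e-05 (Peg10) to 0.00216 (Gnas). Of 25 IGF and insulin genes, 7 were lower and 2 higher (10 and 5 with the replicate block). Igf1 had 2.39, 4.6 and 1.5 FPKM in KO_let-7g and 7.57, 13.7 and 8.88 in KO_siNr6a1 (-1.57, adjusted p = 0.00127), and its receptor Igf1r (-0.47) and the kinase subunit Pik3r1 (-0.51) were lower as well, while the binding protein Igfbp6 was higher (0.87).

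Most mitosis genes were higher in KO_let-7g, where 27.6% of all tested genes were higher and 13.3% lower. Of 30 tested, 23 were called higher and 0 lower, with a median of 0.53 (18 higher and 1 lower after median of ratios scaling, with a median of 0.39). Foxm1, a transcription factor that drives mitotic genes, had 81.3, 71.3 and 80.2 FPKM in KO_let-7g and 39.1, 37.0 and 39.2 in KO_siNr6a1, against 25.1, 25.1 and 27.1 in KO_siCtrl (0.99, SE 0.07, adjusted p = 8.25e-06). The kinetochore protein Ndc80 (0.70), the spindle factor Tpx2 (0.63) and the kinase Aurkb (0.56) were higher too, with adjusted p of 0.000105, 0.000448 and 0.000598. Against KO_siCtrl, 14 of the 30 were called higher and 3 lower in KO_let-7g, and 4 higher and 8 lower in KO_siNr6a1. Of 32 DNA replication genes, 13 were higher and 2 lower as deposited (median 0.24). After median of ratios scaling 4 were higher and 4 lower, where 2129 and 2260 of all 11801 genes were. With the replicate block 20 were higher and 2 lower, where 4356 and 2105 of all genes were. The single-strand binding protein Rpa2 (0.86) and the GINS subunit Gins3 (0.75) were among the higher, and Gins1 (-0.50) was lower.

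G1/S genes had no common direction, with 6 of 26 higher and 6 lower. Ccne1, cyclin E1, had 84.5, 85.9 and 93.3 FPKM in KO_let-7g and 30.3, 31.7 and 34.0 in KO_siNr6a1, against 43.8, 51.4 and 50.5 in KO_siCtrl (1.43, adjusted p = 4.33e-06), and the 3 groups did not overlap. The phosphatase Cdc25a was lower, with 12.9, 13.5 and 13.4 FPKM in KO_let-7g and 22.1, 21 and 22.4 in KO_siNr6a1 (-0.68, adjusted p = 3.11e-05). E2f5 was lower as well (-1.55). Of 23 p53 targets, 5 were higher and 2 lower, both shares under those of all genes (27.6% and 13.3%). The growth-arrest gene Gadd45a had 76.0, 69.4 and 97.0 FPKM in KO_let-7g and 20.7, 27.8 and 24.2 in KO_siNr6a1 (1.69, adjusted p = 1.85e-05). The noncoding RNA Pvt1 was higher (1.17), and Fas and the death receptor Tnfrsf10b (-0.38) were lower. Of 28 genes of the ERK response, 8 were higher, near the 27.6% of all genes, and 2 lower (median 0.25). Among the higher were the growth factor Areg (1.5), the transcription factor Jun (1.08), the survival protein Mcl1 (0.52) and the feedback inhibitor Spry2 (0.72). Areg and Jun were also called lower in KO_siNr6a1 against KO_siCtrl (-0.80 and -0.50).

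More stress and antioxidant genes were called higher than lower in KO_let-7g, as was so for all tested genes (27.6% higher and 13.3% lower). Of 28 genes of the ATF4 and endoplasmic reticulum stress response, 16 were called higher and 2 lower (median 0.42), and 10 higher and 3 lower after median of ratios scaling. The pseudokinase Trib3 had 83.8, 80.8 and 114 FPKM in KO_let-7g and 21.5, 27.3 and 36.9 in KO_siNr6a1 (1.68, adjusted p = 0.000162), and the transcription factor Atf3 23.8, 21.8 and 29.3 FPKM in KO_let-7g and 7.34, 7.80 and 8.70 in KO_siNr6a1 (1.53, adjusted p = 1.04e-05). The glycyl-tRNA synthetase Gars went the other way (-0.58, adjusted p = 0.000234). Of 24 NRF2 targets, 13 were higher and 3 lower (median 0.49). Srxn1, which restores peroxiredoxins, had 79.5, 83.8 and 124 FPKM in KO_let-7g and 40.03, 37.6 and 44.6 in KO_siNr6a1 (1.19, adjusted p = 0.000228), and the cystine transporter Slc7a11, which is on both lists, was higher (0.62). Glutathione reductase, Gsr, was lower (-0.90, adjusted p = 4.18e-05), and so was the ferritin light chain Ftl1, with 583, 816 and 942 FPKM in KO_let-7g and 2074, 2966 and 3175 in KO_siNr6a1 (-1.81, adjusted p = 0.000154). Ftl1 has near-identical copies in the mouse genome, among which reads may have been split, so its level is uncertain.

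Of 35 interferon-induced genes, 13 were higher and 1 lower (median 0.45), where 27.6% and 13.3% of all genes were higher and lower. After median of ratios scaling 9 were higher and 3 lower, and after quantile scaling 10 and 3. Ifi203, of the interferon-inducible p200 family, had 12, 12.7 and 11.3 FPKM in KO_let-7g and 7.36, 5.93 and 5.81 in KO_siNr6a1 (0.82, adjusted p = 0.000367), and the antigen transporter Tap2 67.1, 73.6 and 62.1 FPKM in KO_let-7g and 33.1, 44.3 and 31.0 in KO_siNr6a1 (0.90, adjusted p = 0.00231). Ifit2 (1.18) and Ifi204 (0.50) were also higher. Of 27 inflammation genes 9 were lower and 4 higher (median -0.29). The chemokines Cxcl5 (-1.06) and Ccl9 (-1.46) and the NF-kappaB inhibitor Tnfaip3 (-0.81) were lower, with adjusted p from 0.00146 (Tnfaip3) to 0.00191 (Cxcl5). Against KO_siCtrl, 8 of the 27 were called higher and 4 lower in KO_let-7g (median 0.12). In KO_siNr6a1, 9 were called higher and 3 lower (median 0.46). Tnfaip3 was called higher than in KO_siCtrl in both KO_let-7g (0.55) and KO_siNr6a1 (1.36).

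More genes of lipid synthesis and of glycolysis were called lower than higher in KO_let-7g, where 13.3% of all tested genes were lower and 27.6% higher. Of 31 cholesterol and fatty acid synthesis genes, 17 were called lower and 0 higher (median -0.32), and 23 lower and 0 higher after median of ratios scaling. Fdps, the farnesyl diphosphate synthase of the isoprenoid pathway, had 154, 141 and 138 FPKM in KO_let-7g and 221, 268 and 236 in KO_siNr6a1, against 109, 94.9 and 107 in KO_siCtrl (-0.73, adjusted p = 0.000902). Against KO_siCtrl, 16 of the 31 were called higher in KO_let-7g (median 0.33) and 26 in KO_siNr6a1 (median 0.72), and 0 lower in either.

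Of 27 glycolysis and hypoxia genes, 13 were lower and 2 higher (median -0.34). For this and the other lists of this paragraph, 13.3% of all tested genes were lower and 27.6% higher as deposited. The lactate transporter Slc16a3 had 8.82, 9.08 and 6.39 FPKM in KO_let-7g and 31.4, 37.8 and 25 in KO_siNr6a1, against 20.8, 19.1 and 21 in KO_siCtrl (-1.83, adjusted p = 1.96e-05). The glycolytic enzyme Pgam1 had 381, 418 and 394 FPKM in KO_let-7g and 700.5, 763 and 744 in KO_siNr6a1 (-0.89, adjusted p = 2.25e-05), and the collagen hydroxylase P4ha2 was lower (-0.53). Ndrg1, a hypoxia-induced gene, went against its list, with 69.7, 66.1 and 81.9 FPKM in KO_let-7g and 19.7, 18.9 and 20.3 in KO_siNr6a1 (1.83, adjusted p = 1.06e-05). Of 40 respiratory chain genes 8 were lower and 0 higher (16 and 0 after median of ratios scaling, 13 and 1 with the replicate block), Uqcrc1 (-0.79), Ndufa9 (-0.35), Sdhb (-0.34) and Cox5b (-0.37) among them. Sdhb and Cox5b lost their calls in 1 and 3 of the 6 fits without 1 library (adjusted p up to 0.0550 and 0.0855). Of 40 ribosomal protein genes 4 were higher, Rps7 (0.39), Rps12 (0.43), Rpl13a (0.27) and Rps3 (0.28), and 1 was lower (0 and 1 after median of ratios scaling, 16 and 1 with the replicate block), in a family with many near-identical pseudogenes. Without 1 library, Rpl13a lost its call in 4, Rps3 in 3 and Rps12 in 1 of the 6 fits (adjusted p up to 0.0996).

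More matrix genes were lower than higher, where 13.3% of all tested genes were lower and 27.6% higher. Of 37 extracellular matrix genes, 13 were lower and 5 higher. Col5a3 is counted among the 5, though its call carries no weight as a test. The collagen Col1a1 had 198, 201 and 163 FPKM in KO_let-7g and 346, 387 and 343 in KO_siNr6a1, against 243, 235 and 230.2 in KO_siCtrl (-0.94, adjusted p = 0.000179), while Col5a3, which passed the filter only through KO_let-7g, had a difference of 0.92. Of 22 matrix proteases and their inhibitors, 6 were lower and 5 were higher. The 5 include Mmp3, which passed the filter only through KO_let-7g, so its call carries no weight as a test. The membrane protease Mmp14 had 55.2, 65.5 and 48.6 FPKM in KO_let-7g and 137, 169 and 141 in KO_siNr6a1 (-1.39, adjusted p = 4.84e-05), Mmp11 was lower too (-1.32), and the gelatinase Mmp2 was higher, with 13.3, 14.6 and 19.2 FPKM in KO_let-7g and 4.32, 6.33 and 5.74 in KO_siNr6a1 (1.37, adjusted p = 0.000101). Of 17 osteoblast and cartilage genes 5 were lower and 0 higher (7 and 2 with the replicate block), among them the homeobox gene Dlx5 (3.44, 4.23 and 2.32 FPKM in KO_let-7g and 9.92, 16.1 and 13.7 in KO_siNr6a1, -1.72) and the bone matrix gene Dmp1 (-1.51), with the cartilage collagen Col2a1 lower as well (-0.81). Of 12 adipocyte genes 3 were higher, a share near the 27.6% of all genes, and 0 lower (1 higher and 1 lower after quantile scaling, 2 and 2 after median of ratios scaling, 5 and 1 with the replicate block). They were the triglyceride enzymes Dgat2 (0.63) and Pnpla2 (0.44) and the fatty acid carrier Fabp4 (1.14). Without 1 library, Fabp4 lost its call in 5 of the 6 fits (adjusted p up to 0.101) and Pnpla2 in 2 (up to 0.0621). The acyltransferase Agpat2 did not pass the test (0.45, adjusted p = 0.0539).

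Among 21 contractile genes 2 were higher and 3 lower (2 and 5 after quantile scaling). The shares over all tested genes, for all lists of this paragraph as deposited, are 27.6% higher and 13.3% lower. Smooth muscle actin, Acta2, had 23.8, 22.8 and 15.1 FPKM in KO_let-7g and 41.5, 46.0 and 37.1 in KO_siNr6a1, against 18.5, 18.2 and 14.4 in KO_siCtrl (-1.0, adjusted p = 0.000801). The actin-binding caldesmon Cald1 was lower too (-0.75), and the tropomyosin Tpm4 (0.66) and the LIM protein Csrp1 (0.33) were higher. Of 25 YAP and TGF-beta response genes 3 were higher and 4 lower (2 and 8 after median of ratios scaling, 2 and 6 after quantile scaling, 5 and 6 with the replicate block), the lower ones including the TGF-beta brake Skil (-1.10) and Smad6 (-1.30), and the Hippo kinase Lats2 was higher (0.44). Of 19 Hox genes 4 were higher and 5 lower (0 and 7 after quantile scaling), with Hoxa9 at 11.3, 14.0 and 11.6 FPKM in KO_let-7g and 26.4, 32.1 and 30.7 in KO_siNr6a1 (-1.21, adjusted p = 0.000105) and Hoxa7 at 3.61, 4.85 and 4.31 FPKM in KO_let-7g and 10.2, 13.7 and 14.3 in KO_siNr6a1 (-1.38, adjusted p = 0.000134). Hoxc10 was lower as well (-0.42). Of 32 lysosomal genes 6 were higher and 8 lower (6 and 13 after median of ratios scaling), with the enzyme Gusb at 24.6, 22.8 and 24.9 FPKM in KO_let-7g and 57.8, 56.4 and 59.1 in KO_siNr6a1 (-1.23, adjusted p = 4.37e-06). Of 17 MSC markers 6 were higher and 5 lower (3 and 6 after median of ratios scaling), Pdgfrb being among the lower (-0.78) and Ly6a and the adhesion molecule Mcam (0.96) among the higher.

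Few markers of other cells were high enough to test. Of 3 tested blood markers Cd68 (1.31) and Cd14 (0.84) were higher and Cd74 was lower (-1.29), and the summed level of the blood list was 38.4 to 49.7 FPKM in KO_let-7g and 54.7 to 73.9 FPKM in KO_siNr6a1, with 3 of its 16 markers at 0 in all 6 libraries. The endothelial sum was 38.6 to 41.4 FPKM in KO_let-7g and 47.6 to 50.6 FPKM in KO_siNr6a1, mostly from Eng (-0.38), which MSCs also express and whose call was lost in 4 of the 6 fits without 1 library (adjusted p up to 0.0832). The neural sum was 8.35 to 10.0 FPKM in KO_let-7g and 3.76 to 4.45 FPKM in KO_siNr6a1, mostly from the tubulin Tubb3 (1.16), and the epithelial sum was 1.03 to 1.66 FPKM in KO_let-7g and 0.539 to 0.917 FPKM in KO_siNr6a1. Flt1 (0.03), Krt19 (0.03) and Mbp (0.07), markers of endothelium, epithelium and myelin, did not pass the test (adjusted p = 0.868, 0.873 and 0.872). Of 20 pluripotency and germline genes only Klf4 passed the filter, and it was higher (35.4, 39.3 and 39.0 FPKM in KO_let-7g and 19.2, 30.5 and 22.1 in KO_siNr6a1, 0.67, adjusted p = 0.00724). The part of other cell types in the results was not tested.

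**Figure D5:**
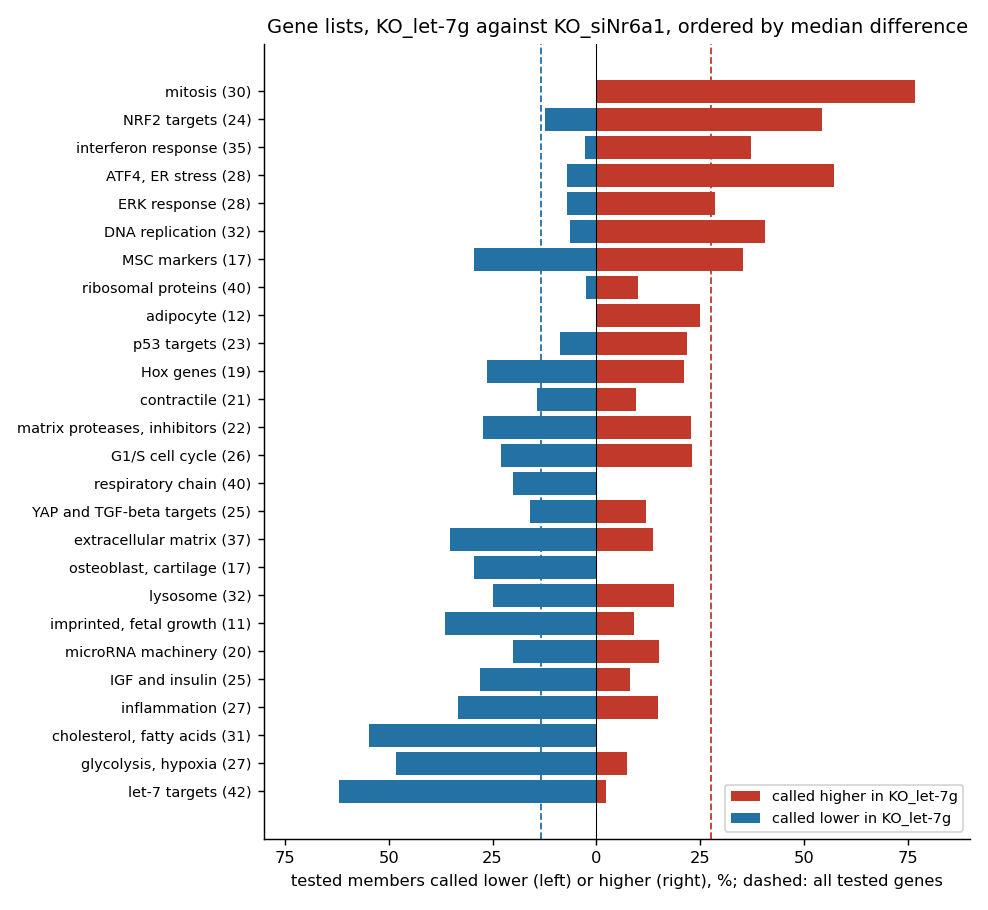
Percent of tested members of each gene list (number tested in parentheses) called lower (blue, left) or higher (red, right) in KO_let-7g than in KO_siNr6a1, for lists with at least 10 tested members, ordered by median difference. Dashed lines are the shares over all tested genes, 13.3% lower and 27.6% higher. The lists were chosen with earlier results of these data known. Among the lists past the lower line are let-7 targets (26 of 42), cholesterol (17 of 31), glycolysis (13 of 27) and matrix genes (13 of 37). Among those past the higher line are mitosis (23 of 30), ATF4 stress (16 of 28) and NRF2 genes (13 of 24).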

How the data were processed

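Polyadenylated mRNA was sequenced from 12 libraries of immortalized mouse MSCs, 3 per group, of which 6 are compared here. The deposited values are FPKM per gene, made by the authors. The submitters' processing notes name TopHat 1.2.0, Cufflinks 1.0.3 and the build mm9. Neither the gene annotation nor the use of strand in counting is stated in the labels or the file headers. Overlapping and antisense genes and near-identical copies are therefore uncertain. Total counts are unknown, and relative depth was read from ratios of low values.

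FPKM were transformed to log2(FPKM + 1), and genes with at least 1 FPKM in at least 3 of the 12 libraries were kept. A linear model with 1 coefficient per group over all 12 libraries (8 residual degrees of freedom) was fitted with limma 3.58.1 (trend; R 4.3.3), and p-values were adjusted by Benjamini-Hochberg over all 11801 genes, with a threshold of 0.05. The difference itself takes no level from the control groups. Their levels do enter the filter and the trend of spread with level, which use all 12 libraries. A change on this scale understates the fold of genes near or below 1 FPKM. Tested on simulated data for this comparison and its 11801 genes, the model called 97 of 100 genes changed by 1.5, 75 of 100 changed by 0.75 and 11 of 11601 unchanged ones (log2). The simulation drew each value independently and changed far fewer genes than were called here. It held no shift of the whole distribution and no spread shared by same-numbered libraries. Its rates therefore need not hold for the calls in these data.

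The same replicate numbers run through all groups in the titles. Deviations of same-numbered KO_let-7g and KO_siNr6a1 libraries from their group means correlated at 0.151 to 0.465 across genes. Those of other numbers correlated at -0.36 to 0.129. The numbers may thus pair the libraries, but no label explains them. The main model is unpaired and leaves the numbers out, so its standard errors and p-values ignore any pairing. With the replicate number as a block, 4356 genes were higher and 2105 lower, against 3262 and 1564 in the main model.

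Sites were read in the longest 3′ UTR of each symbol in GENCODE M21 (GRCm38); no coordinates of the deposited mm9 files were used, and 612 tested genes had no UTR. The members and gene lists were chosen with earlier results of these data known. Named were Nr6a1 and Dicer1, the 15 largest called changes each way without overlap of libraries, up to 4 genes of smallest adjusted p per list, the 8 lowest called genes with an 8mer, and 5 genes each way called in opposite directions against KO_siCtrl. Other genes are said to be named after their values were seen. Some genes that this rule names are not reported here. The 17 alternatives changed pseudocount, filter, scaling, library weights, the libraries fitted or the replicate block, or left out 1 library of the 2 groups.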

Additional observations from a re-analysis of the deposited data

How the results depend on the processing

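Of 139 named genes, 125 kept their call in every alternative that gave them a value, which was all 17 for 118 genes and 16 for 21. After median of ratios scaling 2129 genes were higher and 2260 lower, against 3262 and 1564 as deposited. Leaving out 1 library gave 2579 to 2763 higher genes, 1270 to 1390 lower genes and 24 to 26 lower let-7 targets. The median of the 8mer genes was -0.24 with a pseudocount of 0.1, -0.027 without a filter (19916 genes), -0.27 at a mean of at least 5 FPKM, -0.23 after upper quartile scaling, -0.33 after quantile scaling, -0.31 after median of ratios scaling, and -0.22 to -0.19 without 1 library. It stayed below the median of genes with no site each time. The uncalled Nr6a1 difference was -0.029 under quantile scaling and -0.011 to 0.26 without 1 library, lowest without KO_let-7g replicate 1. With library weights it was 0.25 (limma, adjusted p = 0.0659). Signs also turned for 3 uncalled markers. Flt1 had -0.013 after upper quartile, -0.12 after quantile and -0.094 after median of ratios scaling, and -0.049 to 0.17 without 1 library. The gene Krt19 had -0.030 after quantile scaling, -0.029 with library weights, and -0.0056 to 0.083 without 1 library. Mbp had -0.16 after quantile scaling, -0.23 with library weights, and -0.16 to 0.27 without 1 library. The cause was not tested.

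With the replicate number as a block, 4356 genes were higher and 2105 lower, and all 4826 calls made without it were kept. Of the named genes the block changed the call of the gene Agpat2 (adjusted p = 0.00350), and no other. The lowest levels, the short-RNA entries and the genes with near-identical copies are the least certain values, and total depth is unknown.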

Other observations

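Another pair of gene groups was picked after their values were seen, so their counts support nothing beyond the values themselves. Host genes of small nucleolar RNAs, spliced noncoding transcripts whose introns carry those RNAs, were higher in KO_let-7g than in KO_siNr6a1 beside Snhg10 and Snhg7. Of 9 tested, 8 were called higher and 0 lower, with a median log2 difference of 1.31. Over all tested genes 27.6% were called higher and 13.3% lower. Snhg1 had 263, 235 and 278 FPKM in KO_let-7g and 123, 115 and 116 in KO_siNr6a1, against 143, 143 and 118 in KO_siCtrl (1.12, limma, adjusted p = 0.000199). Snhg6 had 124, 140.4 and 162 FPKM in KO_let-7g and 50.02, 71.7 and 61.0 in KO_siNr6a1 (1.22, adjusted p = 0.00013), and Gas5 had 13.8, 12 and 17.8 FPKM in KO_let-7g and 8.45, 6.6 and 8.63 in KO_siNr6a1 (0.80, adjusted p = 0.00161). No library of one treatment overlapped the other in these 3 genes, as was so for 55.4% of all tested genes. Snhg9 did not pass the test (1.16, adjusted p = 0.168). For Snhg6 the mean was 142 FPKM in KO_let-7g, 60.9 in KO_siNr6a1 and 110 in KO_siCtrl. For Gas5 it was 14.5, 7.89 and 8.39 FPKM in the same groups. Entries of the small nucleolar RNAs themselves were measured too, with 3 of 85 called higher, 2 lower and a median of 0.

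Genes of iron storage and haem breakdown went in both directions. Of 11 iron genes tested, 2 were higher and 3 lower, where 27.6% and 13.3% of all tested genes were higher and lower. The ferritin heavy chain Fth1 had 6604, 7729 and 9363 FPKM in KO_let-7g and 4419, 5422 and 5058 in KO_siNr6a1 (0.66, adjusted p = 0.0107), and haem oxygenase 1, Hmox1, had 327, 409 and 660.3 FPKM in KO_let-7g and 143, 180.0 and 196 in KO_siNr6a1 (1.37, adjusted p = 0.00145). The light chain entries Ftl1 (-1.81) and Ftl2, with 350.1, 386 and 484 FPKM in KO_let-7g and 1241, 1504 and 1663 in KO_siNr6a1 (-1.85, adjusted p = 1.84e-05), were lower. The ferritin light chain copies are nearly identical, so how reads were divided between them is uncertain. Both light chain entries were lower in KO_let-7g, while the heavy chain was higher. In none of these genes did the 2 treatments overlap, as was so for 55.4% of all tested genes.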
